A study of Homo sapiens with 8 samples.

Results

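TMEM158 and 9 genes commonly read as output of the ERK kinases were examined in PANC-1 cells treated with eupalinolide B (EB). The set was chosen from earlier results of the same comparison, in which TMEM158 was the largest rise and DUSP5 one of the upregulated MAPK genes, so the differences of these 10 genes between EB and DMSO are given as a description and without p-values. The other members, DUSP4, DUSP6, SPRY2, SPRY4, SPRED1, SPRED2, ETV4 and ETV5, were picked as common readouts of the same pathway. All 10 were found by symbol among the 20263 genes of the deposited table, and 9 of them passed the filter on low values that 11725 genes passed. DUSP4 did not.

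PANC-1 is a widely used human line derived from a carcinoma of the pancreatic duct, and EB is a natural product of the plant Eupatorium lindleyanum. Cells of 1 group received 10 μM EB and cells of the other its vehicle, dimethyl sulfoxide (DMSO), for 24 h, and mRNA was sequenced from 4 libraries per group that the methods describe as biological replicates. The values are TPM, in which reads are divided by transcript length and scaled to the same sum in every library. Depth is therefore unknown, and in bulk RNA fewer cells that express a gene cannot be told apart from less of its RNA per cell.

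Receptor tyrosine kinases load RAS with GTP, RAS starts the RAF, MEK and ERK kinases in turn, and ERK changes transcription within minutes to hours. Among the genes it induces are its own brakes, namely dual-specificity phosphatases (DUSP) that remove the activating phosphates of MAP kinases, and the Sprouty (SPRY) and SPRED proteins that act upstream, together with the PEA3 factors ETV4 and ETV5 of the ETS family. TMEM158 encodes a transmembrane protein and was first described as a gene induced during senescence caused by oncogenic RAS. In pancreatic ductal carcinoma, where RAS signaling is commonly active, these genes are read as the output of the pathway. In western blots of PANC-1 cells after EB, the paper found phosphorylation of ERK and p38 not significantly changed and that of JNK markedly increased. Whether the genes below reflect the activity of ERK in these cells was not tested.

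The promoter of TMEM158 is shown first because this gene had the largest difference of the 10, and those of DUSP6 and SPRY2 beside it as feedback genes whose TPM was not higher with EB. RefSeq promoter windows on GRCh38.p14 hold 250 bases before and 50 bases after an annotated start, and 9 windows were found for 6 of the members (TMEM158, DUSP6, SPRY2, SPRY4, SPRED1 and SPRED2). The bases before the start are printed 5′ to 3′ on the strand of the gene, from chr3:45226288-45226537 (minus) for TMEM158, chr12:89352502-89352751 (minus) for DUSP6 and chr13:80341127-80341376 (minus) for the outermost of 3 SPRY2 windows. Capitals mark every match of the searched motifs.
TMEM158: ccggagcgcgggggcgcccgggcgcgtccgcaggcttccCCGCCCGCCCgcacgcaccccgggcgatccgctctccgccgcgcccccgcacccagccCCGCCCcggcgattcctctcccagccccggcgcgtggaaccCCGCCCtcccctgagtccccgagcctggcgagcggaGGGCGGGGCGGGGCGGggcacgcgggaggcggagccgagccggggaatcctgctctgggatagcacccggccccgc
DUSP6: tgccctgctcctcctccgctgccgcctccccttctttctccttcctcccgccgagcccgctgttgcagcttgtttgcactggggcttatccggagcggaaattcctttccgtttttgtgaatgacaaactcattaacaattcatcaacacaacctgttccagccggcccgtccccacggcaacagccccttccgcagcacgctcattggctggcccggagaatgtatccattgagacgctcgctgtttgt
SPRY2: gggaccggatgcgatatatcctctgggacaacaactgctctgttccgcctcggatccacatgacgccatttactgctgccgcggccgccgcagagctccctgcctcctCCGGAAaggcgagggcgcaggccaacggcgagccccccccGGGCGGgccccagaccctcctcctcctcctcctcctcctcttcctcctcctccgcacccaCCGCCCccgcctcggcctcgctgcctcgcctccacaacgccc

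Both strands were searched for AP-1 (TGANTCA), CRE (TGACGTCA), ETS (CCGGAA), the ATF4 element (TGATGNAA), the antioxidant element (TGACNNNGC) and the CArG box bound by SRF. The GC box (GGGCGG) was added after the windows had been seen. The TMEM158 window held none of the first 6 motifs and 8 GC boxes, of which 7 lie before the start and some overlap each other. The first of them begins 211 bases and the last 66 bases before the start. At least 8 GC boxes were found in 0.812% of all 35116 windows, and a G and C content as high as its 82.7% in 0.943% (the median of all windows was 58.7%). The DUSP6 window held no motif of the 7. In SPRY2 an ETS match began 142 bases before the start and GC boxes 102 and 42 bases before it. Of the other windows, that of SPRY4 held an antioxidant element 228 bases before the start and the second one of SPRED2 an ATF4 element and a pair of AP-1 matches. Across all windows, AP-1 matches were found in 7.71%, CRE in 1.85%, ETS in 17.2%, ATF4 elements in 3.62%, antioxidant elements in 13.3%, CArG boxes in 1.29% and GC boxes in 45%. A match of letters is not a bound site, and binding was not measured.

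The libraries were alike within groups (on the log2(TPM + 1) scale Pearson's r over genes was 0.970 to 0.986 within the DMSO group, 0.981 to 0.986 within the EB group and 0.932 to 0.956 between them). DMSO replicate 4 stood apart. The 13 mitochondrially encoded genes took 39.0% of its TPM, against 17.0 to 21.1% in the other DMSO libraries and 11.6 to 20.3% in the EB libraries. The groups overlapped in this share (p = 0.0571 by a two-sided exact permutation test, which cannot go below 0.0286). All 10 members had their lowest DMSO value in that library, as did 77.0% of the genes tested. Of the ductal markers, KRT8, KRT18, KRT19, SOX9 and MUC1 were expressed in every library. Of these KRT8 (log2 fold change 1.20), KRT18 (1.49) and KRT19 (1.80) rose with EB, and SOX9 (−1.38) and MUC1 (−2.04) fell, all without overlap between groups (limma adjusted p = 0.00109, 6.22e-05, 3.1e-05, 0.00042 and 0.000148). KRT7, EPCAM and CDH1, also listed as ductal markers, reached at most 0.297, 0.387 and 0.458 TPM. The acinar genes PRSS1 and CPA1, the endocrine genes INS and GCG, the leukocyte gene PTPRC and the endothelial gene PECAM1 were listed at 0 in all 8 libraries, AMY2A was above 0 in 1 library only (0.033 TPM), and the stromal genes COL1A1 and PDGFRB reached at most 2.17 and 0.169 TPM.

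TMEM158 (ENSG00000249992, chromosome 3 of hg38, 45224466 to 45226287, minus strand) was expressed at 2.95, 4.17, 4.08 and 2.41 TPM in DMSO replicates 1 to 4. With EB its TPM was 42.3, 43.7, 41.1 and 41.9. The lowest EB library lay far above the highest DMSO library. Its mean was 42.3 ± 1.10 TPM (SD, n = 4) with EB and 3.40 ± 0.864 TPM (SD, n = 4) with DMSO, a ratio of 12.4 and a log2 fold change of 3.32 (standard error, SE, 0.15), the highest of all genes tested. Fold changes here and below are differences of log2(TPM + 1), which understate the change of low genes. For TMEM158 the EB libraries were also more alike than the DMSO libraries, with a coefficient of variation of 2.59% against 25.4%. The direction was the same for the other members except DUSP4, DUSP5 (13.5% with EB and 4.49% with DMSO) and SPRED2. These DMSO spreads include replicate 4, the lowest DMSO library for all 10 members. For SPRY2 it was at 85.8 TPM and the other DMSO libraries were at 123.2 to 129.7 TPM. The coefficients were not computed without that library, so no effect of EB on the spread is read from them. By mean TPM, TMEM158 stood above 11.6% of the tested genes with DMSO and above 73.0% with EB.

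**Figure D1:**
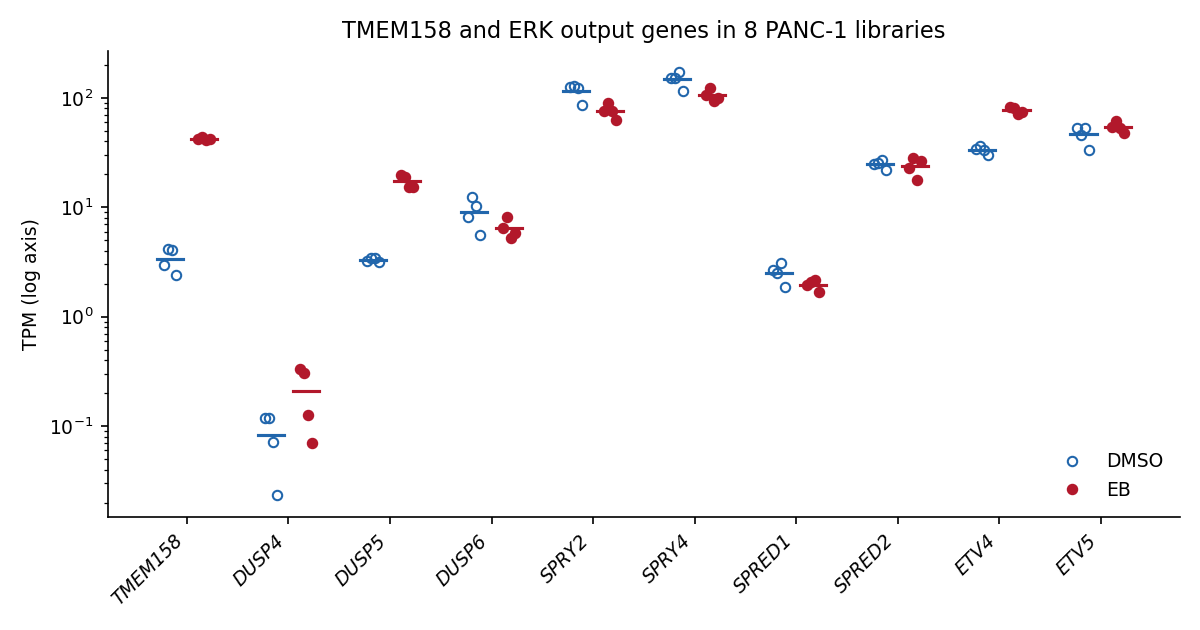
TPM (log axis) of the 10 genes in each library, with open points for the 4 DMSO and filled points for the 4 EB libraries in the order of their replicate numbers and a line at each group mean. The EB points of TMEM158 (41.1 to 43.7 TPM), DUSP5 (15.2 to 19.6 TPM) and ETV4 (71.4 to 82.2 TPM) lie above all DMSO points of the same gene, and the groups of the other 7 genes overlap.

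The phosphatases were next examined. DUSP5 encodes a nuclear phosphatase that acts on ERK, and DUSP6 its counterpart in the cytoplasm. DUSP5 (ENSG00000138166, chromosome 10, 110497907 to 110511533, plus strand) was at 3.22, 3.42, 3.43 and 3.13 TPM in the DMSO libraries and at 19.6, 18.9, 15.2 and 15.3 TPM in the EB libraries. The groups did not overlap. The means were 3.30 ± 0.148 TPM and 17.3 ± 2.33 TPM (SD, n = 4 each), a ratio of 5.23 and a log2 fold change of 2.08 (SE 0.13), rank 22 of all genes tested. DUSP6 (ENSG00000139318, chromosome 12, 89347235 to 89352501, minus strand) was at 8.23, 12.3, 10.4 and 5.58 TPM with DMSO and at 6.46, 8.24, 5.25 and 5.86 TPM with EB. Its groups overlapped, with means of 9.13 ± 2.90 and 6.45 ± 1.29 TPM (SD, n = 4 each) and a log2 fold change of −0.41 (SE 0.22) that was not called. Thus DUSP5 was the higher of the pair in every EB library and DUSP6 in every DMSO library. The ratio of DUSP5 to DUSP6 within a library, which a single scaling factor per library leaves as it is, was 0.277 to 0.561 with DMSO and 2.3 to 3.03 with EB.

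DUSP4, another nuclear phosphatase of MAP kinases (ENSG00000120875, chromosome 8, 29333064 to 29350684, minus strand), was near 0 in all libraries. Its TPM was 0.118, 0.118, 0.071 and 0.023 with DMSO and 0.333, 0.308, 0.127 and 0.070 with EB. The groups overlapped, and at these levels no difference was tested.

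SPRY2 and SPRY4, which restrain signaling between the receptors and RAF, were the most abundant members in the DMSO libraries. SPRY2 (ENSG00000136158, chromosome 13, 80335976 to 80341126, minus strand) was at 124.6, 129.7, 123.2 and 85.8 TPM with DMSO and at 76.1, 89.1, 76.3 and 62.6 TPM with EB. The means were 115.8 ± 20.2 and 76.0 ± 10.8 TPM (SD, n = 4 each), a log2 fold change of −0.59 (SE 0.17). The groups overlapped only because DMSO replicate 4 lay below EB replicate 2. SPRY4 (ENSG00000187678, chromosome 5, 142310427 to 142326455, minus strand) was at 153.4, 151.0, 172.7 and 115.3 TPM with DMSO and at 106.1, 123.7, 93.9 and 99.8 TPM with EB, with means of 148.1 ± 23.9 and 105.9 ± 12.9 TPM (SD, n = 4 each) and a log2 fold change of −0.47 (SE 0.15). Again a single pair of libraries, DMSO replicate 4 and EB replicate 2, made the ranges overlap. Both genes were called lower, but neither call was kept when any 1 of DMSO replicates 1, 2 or 3 or EB replicate 4 was left out, and that of SPRY4 was also lost without EB replicate 1 or 3. Their ratio hardly moved, and SPRY2 was below SPRY4 in all 8 libraries (0.714 to 0.859 of it with DMSO and 0.627 to 0.812 with EB).

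SPRED1 and SPRED2 encode membrane-bound inhibitors that bring the RAS GTPase-activating protein neurofibromin to RAS. SPRED1 (ENSG00000166068, chromosome 15, 38252836 to 38357249, plus strand) was at 2.68, 2.49, 3.11 and 1.85 TPM with DMSO and at 1.93, 2.06, 2.17 and 1.68 TPM with EB. SPRED2 (ENSG00000198369, chromosome 2, 65310851 to 65432637, minus strand) was at 25, 25.4, 27.0 and 21.7 TPM with DMSO and at 22.9, 28.1, 17.8 and 26.3 TPM with EB. The groups overlapped for both. The log2 fold changes were −0.24 (SE 0.14) for SPRED1 and −0.07 (SE 0.16) for SPRED2, and neither was called. SPRED1 remained the minor one of the pair, at 0.085 to 0.115 of SPRED2 with DMSO and 0.064 to 0.122 with EB.

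ETV4 and ETV5 are closely related transcription factors that act at ERK-responsive genes. ETV4 (ENSG00000175832, chromosome 17, 43527844 to 43579620, minus strand) was at 33.9, 36.1, 33.5 and 30.3 TPM with DMSO and at 82.2, 80.2, 71.4 and 74.5 TPM with EB, without overlap. The means were 33.5 ± 2.39 and 77.1 ± 5.0 TPM (SD, n = 4 each), a ratio of 2.3 and a log2 fold change of 1.18 (SE 0.11), rank 161 of all genes tested. ETV5 (ENSG00000244405, chromosome 3, 186046314 to 186110318, minus strand) was at 53.3, 45.7, 53.4 and 33.4 TPM with DMSO and at 54.2, 61.0, 53.0 and 47.5 TPM with EB. Its groups overlapped, with means of 46.4 ± 9.41 and 53.9 ± 5.55 TPM (SD, n = 4 each) and a log2 fold change of 0.23 (SE 0.17) that was not called. As with the phosphatases, the order within the pair was opposite in the groups. ETV4 was at 0.628 to 0.908 of ETV5 in the DMSO libraries and at 1.31 to 1.57 times ETV5 in the EB libraries. Ratios within a library are not free of a shift that depends on transcript length, as described below. The longest transcripts have 2335 nucleotides for ETV4 and 4082 for ETV5, and 2477 for DUSP5 and 3627 for DUSP6. With length and GC content corrected for, the log2 fold changes were 1.10 and 0.39 for ETV4 and ETV5, and 2.01 and −0.29 for DUSP5 and DUSP6.

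**Figure D2:**
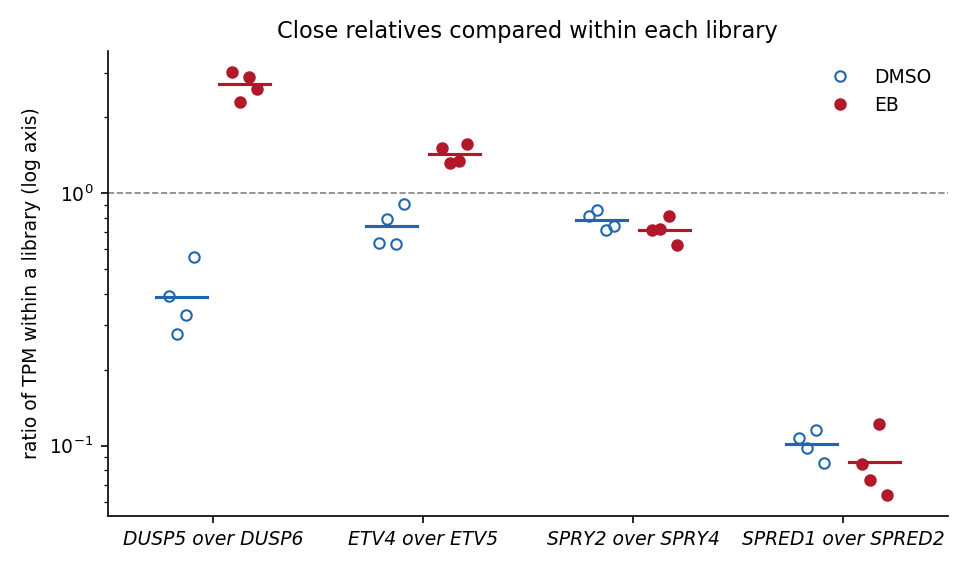
Ratio of the TPM of related genes within each library (log axis), with open points for DMSO, filled points for EB, lines at the group means and a dashed line at equal TPM. DUSP5 over DUSP6 (mean 0.390 with DMSO and 2.71 with EB) and ETV4 over ETV5 (mean 0.741 and 1.44) lie on opposite sides of the dashed line without overlap, whereas SPRY2 over SPRY4 and SPRED1 over SPRED2 overlap below it.

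In the DMSO libraries the order of mean TPM was SPRY4, SPRY2, ETV5, ETV4, SPRED2, DUSP6, TMEM158, DUSP5, SPRED1 and DUSP4. Neighbours in this order had separate ranges except for SPRY4 and SPRY2, ETV5 and ETV4, and TMEM158 and DUSP5. Of these, TMEM158 and DUSP5 could not be ordered, since each was the higher in 2 of the 4 libraries. With EB the order was SPRY4, ETV4, SPRY2, ETV5, TMEM158, SPRED2, DUSP5, DUSP6, SPRED1 and DUSP4, in which ETV4 and SPRY2 could not be ordered (each the higher in 2 of 4 libraries) and the ranges of SPRED2 and DUSP5 overlapped. Across the 8 libraries, which form the 2 groups, Pearson's r with TMEM158 on the log2(TPM + 1) scale was 0.994 for ETV4 and 0.992 for DUSP5. It was 0.535 for ETV5 and negative for the others tested, from −0.139 for SPRED2 to −0.768 for SPRY2.

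EB was compared with DMSO by limma across all genes tested, and a gene was called at a Benjamini-Hochberg adjusted p under 0.05. Of the 9 members tested, 3 were called higher (TMEM158, DUSP5 and ETV4, background 15.2% of all genes tested), 2 were called lower (SPRY2 and SPRY4, background 25.1%) and 4 were not called. For 3 of the 10 members all EB libraries lay above all DMSO libraries (16.6% of all genes tested), for 0 they lay below (20.3%) and for 7 the groups overlapped. TMEM158 and DUSP5 passed the thresholds of the study, an unadjusted p under 0.05 and a log2 fold change above 1.5, as did 0.537% of all genes tested. As this contrast chose the set, nothing is read from these counts. Without DMSO replicate 4, SPRY2, SPRY4 and SPRED1 lay below all 3 remaining DMSO libraries in every EB library (39.0% of genes then), while DUSP6 still overlapped with 8.23 TPM in its lowest DMSO and 8.24 TPM in its highest EB library. The median log2 fold change of the members tested was −0.07, beside −0.11 over all genes tested.

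The scaling between libraries moved all genes, and 37.7% of all calls were higher ones. Median-ratio scaling, quantile normalization and a correction for the length and GC content of transcripts brought the median of all genes from −0.11 to 0.01, 0.02 and 0.02 and the share of higher calls to 51.1%, 50.3% and 52.2%. Removal of the mitochondrially encoded genes brought them to −0.28 and 22.7%. Median-ratio scaling, quantile normalization and the length and GC correction align the libraries by design. Their medians and balanced shares follow from that and are not a result. TMEM158, DUSP5 and ETV4 were higher with EB under every setting, with log2 fold changes of 3.13 to 3.63, 1.97 to 2.34 and 1.0 to 1.31. SPRY2 (−0.78 to −0.46), SPRY4 (−0.66 to −0.19) and DUSP6 (−0.60 to −0.12) were lower under every setting, and ETV5 was higher (0.05 to 0.39). SPRED1 (−0.39 to 0.20) and SPRED2 (−0.25 to 0.12) had no fixed direction.

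**Figure D3:**
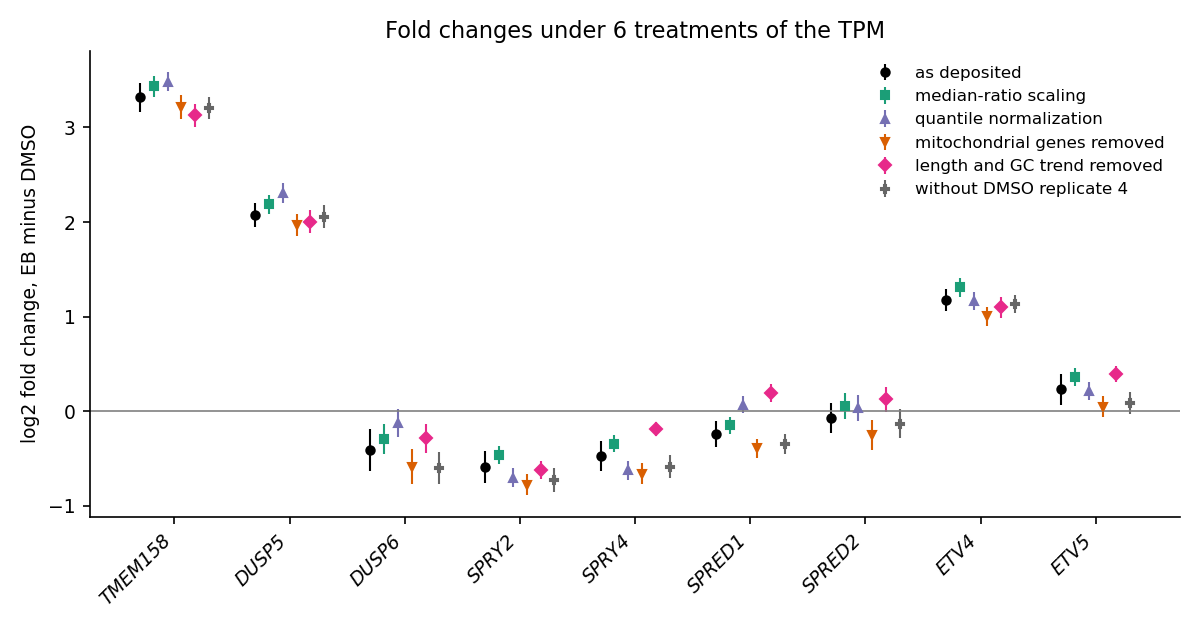
Log2 fold change (EB minus DMSO) of the 9 members tested, with its standard error, from TPM as deposited, under 4 other treatments of the TPM and without DMSO replicate 4. The points of TMEM158, DUSP5 and ETV4 stay at or above 1.0, those of DUSP6, SPRY2 and SPRY4 below 0, and those of SPRED1 and SPRED2 lie on both sides of it.

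Transcript length moved with the fold changes of all genes. Among the genes tested, the median log2 fold change was 0.24 for the 3131 genes whose longest annotated transcript is under 2500 nucleotides and −0.45 for the 2412 genes at 6000 nucleotides or more. TMEM158 (1822 nucleotides), ETV4 (2335) and DUSP5 (2477) have the shortest transcripts of the 10 members, while SPRY2 with 2708 nucleotides lay on the other side of 0. After a smooth trend on both length and GC content was subtracted within libraries, the log2 fold changes were 3.13 for TMEM158, 2.01 for DUSP5 and 1.10 for ETV4. That of SPRY4 was −0.19 and no longer called, and that of ETV5 was 0.39 and called.

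**Figure D4:**
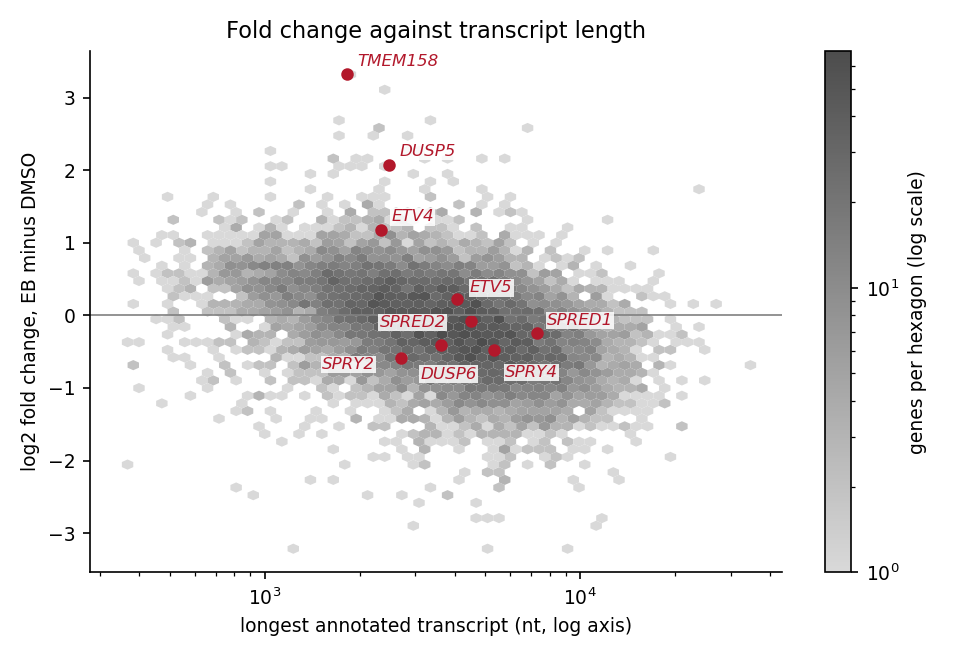
Log2 fold change (EB minus DMSO) against the length of the longest annotated transcript (nucleotides, log axis) for the nuclear genes tested, shaded by the number of genes per hexagon, with the 9 members as red points. The cloud falls with length, TMEM158 and DUSP5 lie above it, ETV4 at its upper edge and the other 6 members within it.

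The remaining genes of the pathway were described from 6 lists. Of the other MAPK phosphatases, 6 of 7 were tested, 2 rose and 1 fell (median log2 fold change 0.12), against a background of 15.2% and 25.1%. DUSP2, a nuclear phosphatase of ERK, was at 2.33 to 5.77 TPM with DMSO and 8.50 to 14.6 TPM with EB (log2 fold change 1.37, SE 0.23, limma adjusted p = 0.00196). DUSP1, an immediate early phosphatase of several MAP kinases, rose from 39.5 ± 9.09 to 84.1 ± 11.5 TPM (SD, n = 4 each, log2 fold change 1.09, SE 0.19, limma adjusted p = 0.00227). Neither gene overlapped between groups. DUSP10 was listed at 0 in all libraries, and DUSP16, which acts mainly on JNK and p38, was the one that fell (log2 fold change −0.60). Its groups overlapped, and the call was lost without any 1 of DMSO replicates 1 and 2 and EB replicates 1 and 4 and with length and GC content corrected for (−0.20).

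Of the other inhibitors of the pathway, 7 of the 11 tested fell and 0 rose, with a median of −0.78 against −0.11 over all genes, of which 25.1% fell and 15.2% rose (0 higher and 7 lower at an unadjusted p under 0.05). Median-ratio scaling and removal of the length and GC trend each gave 1 higher call, beside 7 and 8 lower ones. CBL, a ubiquitin ligase that marks activated receptors for degradation, had the largest fall. It was at 13.1, 13.8, 14.9 and 6.98 TPM with DMSO and at 1.23, 0.641, 0.504 and 0.465 TPM with EB (log2 fold change −2.92, SE 0.23, limma adjusted p = 5.12e-05). The RAS GTPase-activating proteins RASA1 (23.1 ± 3.29 to 7.44 ± 1.87 TPM, log2 fold change −1.53) and DAB2IP (40.4 ± 11.6 to 14.7 ± 2.53 TPM, −1.36) fell without overlap between groups (SD, n = 4 each). With length and GC content corrected for, the log2 fold changes were −2.38 for CBL, −1.26 for RASA1 and −0.92 for DAB2IP. SPRY1, the relative of SPRY2 and SPRY4, fell from 28.9 ± 16.4 to 10.9 ± 3.67 TPM (log2 fold change −1.24, SE 0.36, limma adjusted p = 0.0208), but its groups overlapped. The call was lost without a filter (limma adjusted p = 0.0508) and without EB replicate 4 (limma adjusted p = 0.0531).

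Genes of the RAS, RAF, MEK and ERK cascade itself were also examined. Of 15, 8 fell and 0 rose (median −0.52, with 8 lower and 1 higher at an unadjusted p under 0.05), beside 25.1% of all genes called lower and 15.2% called higher. All 8 had EB libraries below all DMSO libraries, as did 20.3% of all genes tested. Median-ratio scaling, quantile normalization and removal of the length and GC trend each gave 1 higher call, beside 8, 9 and 7 lower ones. KSR1, a scaffold for RAF, MEK and ERK, fell from 16.5 ± 2.79 to 4.59 ± 2.95 TPM (SD, n = 4 each, log2 fold change −1.79, SE 0.34, limma adjusted p = 0.00307). SOS1, which loads RAS with GTP, fell from 14.7 ± 1.12 to 5.08 ± 1.19 TPM (SD, n = 4 each, log2 fold change −1.39, SE 0.16, limma adjusted p = 0.000291). The others, named after their values had been seen, included SOS2, MAPK3, NRAS, BRAF and ARAF, with log2 fold changes of −0.82 to −0.51. BRAF was at −0.02 and not called with length and GC content corrected for. KSR1 and SOS1 have longest transcripts of 7237 and 8906 nucleotides. Over all settings their log2 fold changes ranged from −2.08 to −1.37 and from −1.59 to −0.89. The median of all tested genes at 6000 nucleotides or more was −0.45.

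**Figure D5:**
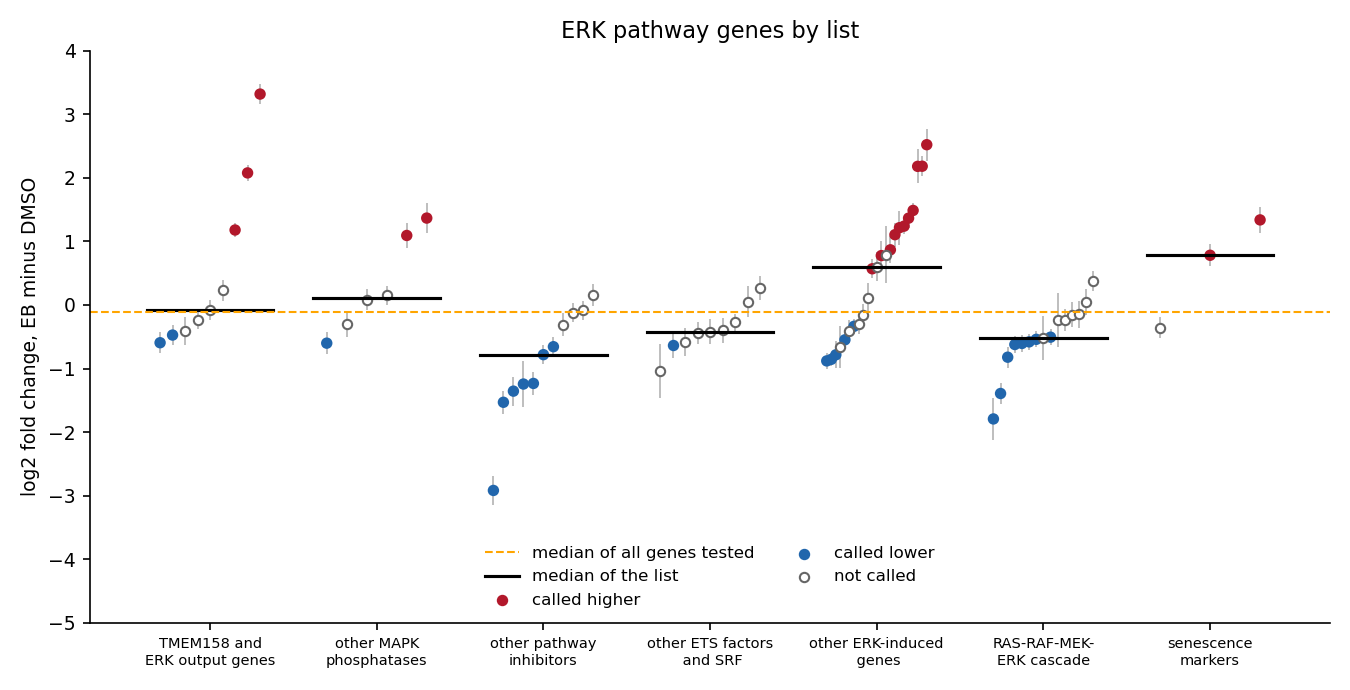
Log2 fold change (EB minus DMSO) with its standard error for each tested gene of the 7 groups, ordered within a group, with a black line at the group's median and a dashed line at the median of all genes tested (−0.11). Red and blue points were called higher and lower by limma, and the list of other ERK-induced genes holds 11 red and 5 blue points, whereas the inhibitors and the cascade hold blue and open points only.

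The other genes known to be induced by ERK were divided. Of the 23 tested, 11 rose and 5 fell, with a median of 0.60, against 15.2% and 25.1% of all genes tested, and 15 of these 16 were without overlap between groups. The exception was CXCL8, whose call (log2 fold change 0.78) was lost without DMSO replicate 2, without EB replicate 1, 2 or 3 and with length and GC content corrected for. UPP1, a uridine phosphorylase, rose from 49.6 ± 16.8 to 279.5 ± 54.9 TPM (SD, n = 4 each, log2 fold change 2.52, SE 0.25, limma adjusted p = 0.000168). FOSL1, a subunit of AP-1, rose from 85.6 ± 8.65 to 397.0 ± 84.9 TPM (SD, n = 4 each, log2 fold change 2.18, SE 0.16, limma adjusted p = 3.93e-05), and PLAUR, the urokinase receptor, from 5.76 ± 2.3 to 28.0 ± 2.93 TPM (log2 fold change 2.18). Ligands of the EGF receptor were among the genes on both sides. HBEGF was at 2.67 to 3.38 TPM with DMSO and 10.1 to 10.6 TPM with EB (log2 fold change 1.49, SE 0.11, limma adjusted p = 4.47e-05). AREG and EREG, chosen after their values were seen, fell from 123.4 ± 4.87 to 67.8 ± 3.22 TPM and from 64.8 ± 7.47 to 34.6 ± 2.26 TPM (SD, n = 4 each, log2 fold changes −0.86 and −0.88, limma adjusted p = 0.000459 and 0.000852). The immediate early genes EGR1 (1.37), FOS (1.22) and FOSB (1.24) rose, and MYC (−0.55), EPHA4 (−0.78) and IER3 (−0.34) fell, on the log2 scale. These 6 were also chosen after their values were seen. The call of IER3 was lost in 6 of 8 fits with a library left out and with median-ratio scaling or quantile normalization. It was also lost with a pseudocount of 0.1 and with the replicate block. That of MYC was lost without DMSO replicate 2 or EB replicate 3, and with median-ratio scaling, quantile normalization or length and GC content corrected for. That of EPHA4 was lost without EB replicate 3.

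Of the other ETS factors and their partner SRF, all 9 were tested, 1 fell and 0 rose (median −0.42, with 4 lower and 0 higher at an unadjusted p under 0.05), against a background of 25.1% and 15.2%. ELK1, which binds with SRF at immediate early promoters, was at 116.6, 116.2, 128.7 and 70.4 TPM with DMSO and at 72.6, 81.9, 62.5 and 57.2 TPM with EB (log2 fold change −0.63, SE 0.20, limma adjusted p = 0.0331). Its groups overlapped through DMSO replicate 4, and the call was lost without a filter and without any 1 of DMSO replicates 1, 2 and 3 and EB replicates 1, 3 and 4. The list's lower calls ranged from 0 without a filter to 5 with a replicate block or without DMSO replicate 4 and 7 with the mitochondrially encoded genes removed. Its higher calls became 1 with median-ratio scaling or quantile normalization and 2 with the length and GC trend removed. ETV1, the third PEA3 factor beside ETV4 and ETV5, had a log2 fold change of −0.58 (SE 0.22) and was not called, but was called lower with the mitochondrially encoded genes removed (−0.76), with the replicate block and without DMSO replicate 3 or EB replicate 2.

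Because TMEM158 was first described in senescence, 8 markers of that state were listed, of which 3 were expressed enough to be tested. CDKN1A, the cell cycle inhibitor p21, rose from 13.7 ± 4.04 to 35.0 ± 3.24 TPM (SD, n = 4 each, log2 fold change 1.34, SE 0.21, limma adjusted p = 0.00129). LMNB1, the lamin whose loss is used as a marker, had a log2 fold change of −0.36 and was not called, but was called lower with quantile normalization (−0.42), with the mitochondrially encoded genes removed (−0.55), with the replicate block and without DMSO replicate 4. CDKN2A, CDKN2B and IL6 were listed at 0 in all libraries.

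To see whether its neighbours on chromosome 3 differed too, the protein-coding genes within 250 kb of TMEM158 were examined. Of 5, 4 were tested and 2 rose (background 15.2%). CDCP1, a transmembrane substrate of SRC family kinases that lies 78.0 kb away, rose from 5.12 ± 1.12 to 16.1 ± 3.36 TPM (SD, n = 4 each, log2 fold change 1.48, SE 0.18, limma adjusted p = 0.000438). EXOSC7, a subunit of the RNA exosome at 188.4 kb, had a log2 fold change of 0.87 (SE 0.18, limma adjusted p = 0.00488). ZDHHC3 (−0.06) and LARS2 (−0.09) were not called, but both were called higher with length and GC content corrected for (0.47 and 0.41), and CLEC3B was too low to be tested. CDCP1 and EXOSC7 both lie on the side of lower coordinates, nearer to TMEM158 than ZDHHC3 (248.3 kb). LARS2 lies on the other side at 162.3 kb, nearer than EXOSC7, so the calls did not follow distance.

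Over the 8 libraries the tested genes most like TMEM158 by Pearson's r were KLF2 (0.999), KRT19 (0.999), HBEGF (0.998), PIR (0.997) and CD68 (0.997), followed by many others, as 36 genes had r above 0.99 and 386 above 0.95. With 2 groups this measure mainly reads a rise with little spread within groups. KLF2, a zinc finger transcription factor, was at 9.35 to 12.5 TPM with DMSO and 50.5 to 54.8 TPM with EB, and KRT19, a keratin of ductal epithelium, at 135.5 to 178.9 and 554.7 to 583.1 TPM.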

How the data were processed

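RNA sequencing of PANC-1 cells (4 libraries with EB, 4 with DMSO) was analysed from 1 table of TPM that the authors deposited, computed within each library. Per the methods, the authors used CLC Genomics Workbench for trimming, mapping and normalization and list HISAT2 and StringTie as further tools. As the genome they name a mouse assembly, GrCM38, next to human hg38, and the identifiers are human. TPM keep no read counts, so depth and counting error are unknown, and whether counting used strand is not given in the sources used here. Columns headed C were read as DMSO and those headed H, a letter not explained, as EB, the only other group. The methods speak of both 4 biological replicates and triplicates. If replicates were technical, p-values measure only that spread.

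Symbols and positions came from GENCODE release 44 (hg38), in which 20148 identifiers were found and 115 were not. Genes that reached 1 TPM in at least 4 libraries were compared by limma 3.58.1 in R 4.3.3 (lmFit and eBayes, prior degrees of freedom 3.88) on log2(TPM + 1), with Benjamini-Hochberg adjustment over all genes tested. The members, lists and tests were chosen with earlier results of these data known. Named were all members, of each list at most 4 called genes whose log2 fold change was beyond 1 in either direction (otherwise the 2 largest called), called genes within 250 kb of TMEM158, the 5 genes most like it and the markers. Some genes of the lists are counted but not reported by name here. Genes named outside this rule are said to be so or are uncalled genes given for their role. Same-numbered EB and DMSO libraries had correlations of their deviations from −0.088 to 0.284, against −0.238 to 0.126 for differently numbered ones. The ranges overlapped, but the highest values, 0.284 and 0.183, belonged to the same-numbered replicates 4 and 1. Whether the numbers pair the libraries is not known. They were not taken as pairs in the main fit, and the replicate block was an alternative. In simulated data of 11725 genes with 200 changed, 72% of changes of 1 and 96% of changes of 2 on the log2 scale were found, with 0 wrong signs, and 9 unchanged genes were called. The simulated noise was independent between genes and libraries, and far fewer genes changed than were called in the data. These rates therefore do not cover errors from a shift that a whole library shares, as in DMSO replicate 4. Alternatives were other pseudocounts, filters, scalings, an intensity trend, a replicate block, each library left out and the thresholds of the study. Promoter windows and their coordinates are RefSeq's on GRCh38.p14. Matplotlib 3.10.9 drew the plots.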

Additional observations from a re-analysis of the deposited data

Results flagged for a closer look

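In 110 groups of 4 libraries, the lowest or highest library was compared with its nearest neighbour by Dixon's critical value for 4 samples, and chance alone sets about 1 in 20 such groups apart. DMSO replicate 4 was the low library for SPRY2 (85.77 TPM against 123.2 to 129.7 in the others, a gap of 0.877 of the whole range), ELK1 (70.42 against 116.2 to 128.7), ARAF (89.53 against 110.8 to 115.1), LMNB1 (68.97 against 88.1 to 89.0), KRT8 (513.7 against 808.3 to 877.4), KRT18 (342 against 413.3 to 424.7) and LARS2 (12.74 against 17.9 to 18.7). DMSO replicate 2 was the high library for MYC (34.66 TPM against 27.4 to 28.5). Among the EB libraries, replicate 4 was high for FOSB (3.387 TPM against 2.89 to 2.94) and low for LMNB1 (47.8 against 69.9 to 73.8), and replicate 3 was low for SOS2 (4.444 against 7.26 to 7.76).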

How the results depend on the processing

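The calls and directions of TMEM158, DUSP5 and ETV4 were the same under every alternative tried, except that ETV4 did not pass the fold threshold of the study. Counts of called genes changed for some lists. With the mitochondrially encoded genes removed, lower calls became 4 (from 2) among the members, 2 (from 1) among other MAPK phosphatases, 7 (from 1) among ETS factors and 1 (from 0) among senescence markers, and DUSP6 (−0.58) and SPRED1 (−0.39) were called lower. With length and GC content corrected for, lower calls became 1 among the members, 0 among MAPK phosphatases and 2 among ETS factors, higher calls became 1 (from 0) among inhibitors, 2 among ETS factors and 1 in the cascade, SPRY4 (−0.19) was not called, ETV5 (0.39) was called higher, and SPRED1 (0.20) and SPRED2 (0.12) changed sign. Median-ratio scaling gave 1 higher call each among inhibitors, ETS factors and the cascade, 2 lower calls among ETS factors, ETV5 (0.36) called higher and SPRED2 at 0.055. Quantile normalization gave 1 higher call each among ETS factors and the cascade, 3 lower calls among ETS factors, 1 among senescence markers, and SPRED1 at 0.071 and SPRED2 at 0.036. Without a filter, 0 ETS factors were called lower. With the replicate block, 2231 genes were called higher and 3525 lower (1785 and 2944 without it), ETS factors had 5 lower calls, senescence markers 1 lower call and the cascade 1 higher call. With the thresholds of the study, 0 members, MAPK phosphatases, ETS factors and ERK-induced genes were called lower, 2 inhibitors and 1 gene of the cascade were lower, and 0 MAPK phosphatases, 3 ERK-induced genes and 0 senescence markers were higher. With each library left out, lower calls ranged from 0 to 4 among the members, 0 to 2 among MAPK phosphatases, 0 to 5 among ETS factors, 2 to 7 among ERK-induced genes and 0 to 1 among senescence markers, with the highest of each without DMSO replicate 4. The log2 fold changes ranged from −0.60 to −0.26 for DUSP6, −0.73 to −0.51 for SPRY2, −0.59 to −0.39 for SPRY4, −0.34 to −0.17 for SPRED1 and −0.16 to 0.055 for SPRED2, which was positive only without EB replicate 3. DUSP6 and SPRED1 were called lower without DMSO replicate 4. Of the 40 named genes that are no members and were called, 31 kept their call (adjusted p under 0.05) under every alternative in which they were tested. SPRY1, ELK1, DUSP16, MYC, EPHA4, IER3, BRAF, CXCL8 and COL1A1 lost it under 1 or more. Among the 31, FOSB was tested in only 13 of 18 settings and FOS in 17. In the rest these genes did not pass the filter. Among the uncalled neighbours of TMEM158, ZDHHC3 changed sign with median-ratio scaling (0.070) and length and GC content corrected for (0.47), and LARS2 with these (0.033 and 0.41) and quantile normalization (0.077). The causes were not tested. TPM carry no depth, so how far it limits low genes such as DUSP4 could not be assessed.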
